A study of Saccharomyces cerevisiae with 24 samples.

Results

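The 9 nuclear genes described here encode the subunits of the cytochrome bc1 complex of Saccharomyces cerevisiae: COR1 (YBL045C), QCR2 (YPR191W), CYT1 (YOR065W), RIP1 (YEL024W), QCR6 (YFR033C), QCR7 (YDR529C), QCR8 (YJL166W), QCR9 (YGR183C) and QCR10 (YHR001W-A). They were taken by name, as the known nuclear-encoded subunits of the complex, out of 6814 genes in the joined count tables, and all 9 were counted in all 24 libraries. The libraries came from 8 groups of 3, made of 2 strains in 4 media, and report transcript abundance by RNA sequencing. Both strains are of the GA74-1A background and lack the chromosomal PSD1 and PSD2 genes. The LG strain carries an integrated Psd1-LGS/AAA allele, in which the autocatalytic LGS site is replaced by alanines; per the labels it cannot cleave itself and does not restore growth without ethanolamine. The WT strain carries Psd1-3XFLAG, a tagged and functional construct, and so is a rescued deletion strain rather than an unmodified wild type. Each strain was grown to an OD600 of 0.5 to 0.7 in YPD with 2 mM ethanolamine (LGE and WTE), in YPD with 0.5 mM lyso-phosphatidylethanolamine and 1% tergitol (LGL and WTL), in YPD with 2 mM choline (LGC and WTC), or in YPD alone (LGD and WTD). No group had tergitol without lyso-phosphatidylethanolamine, so the detergent and the lipid cannot be told apart.

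The bc1 complex, complex III of the respiratory chain, lies in the mitochondrial inner membrane, where it passes electrons from ubiquinol to cytochrome c and moves protons across the membrane. Its redox centres sit on cytochrome b, which the mitochondrial genome encodes as COB, on cytochrome c1 and on the Rieske iron-sulphur protein; the other subunits are core and small accessory proteins. Psd1 is the mitochondrial enzyme that decarboxylates phosphatidylserine to phosphatidylethanolamine, a lipid of the same membrane. In budding yeast, transcription of respiratory genes is held down by glucose and is activated by the HAP complex, which binds CCAAT, and by the heme-responsive factor Hap1.

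Library totals ran from 16044470 to 20946936 counts, and members held between 1578 and 21788 counts in a library, so counting error on a member's value was small. Replicates 1 and 2 were the closest pair in 8 of 8 groups, with a correlation across genes of log2 CPM (counts scaled to a common library total) of 0.989 to 0.994, against 0.955 to 0.988 for pairs that included replicate 3. The chi-square of counts per gene was 2.62 to 16.6 between replicates 1 and 2, against 82.5 to 305 for pairs with replicate 3. Counting noise alone gives about 1, but repeat preparations of one culture would exceed it too, so it cannot be told from these values whether the closest pair came from 1 culture or from several. All 3 were kept as replicates because the labels list them as separate samples, and p-values measure only the spread between these samples. With replicates 1 and 2 summed into 1 library per group, 0 members passed in each of the 13 comparisons. That fit called few genes of any kind, 1.53% in LGD against WTD, 4.65% in WTE against WTD, 0.225% in WTC against WTD, 0.0159% in LGE against WTE, 0.0314% in the ethanolamine interaction and 0.0% in the other 8 comparisons. PSD1 transcripts (YNL169C) stood at 550 ± 131 CPM in the LGD libraries, against 862 ± 26.7 CPM in the WTD libraries (SD, n = 3 each; edgeR, adjusted p = 0.0257). Gene counts cannot tell the LGS/AAA allele from the functional one, so this does not check the labels.

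The members lie on 9 chromosomes, and none overlaps another gene in the deposited coordinates, which equal those of build R64 for all 9. COR1 is at chrII:134143-135516 (minus strand), QCR2 at chrXVI:919381-920487 (plus), CYT1 at chrXV:447439-448368 (plus), RIP1 at chrV:107260-107907 (plus) and QCR6 at chrVI:224326-224769 (minus). QCR7 is at chrIV:1496165-1496548 (minus), QCR8 at chrX:106434-106718 (plus), QCR9 at chrVII:859063-859476 (minus, with an intron of 213 bases) and QCR10 at chrVIII:107826-108122 (plus, with an intron of 63 bases). A promoter stretch is shown for 4 members, chosen by how their transcripts differ in what follows or by the motifs found. RIP1 was the member called lower in the strain comparison with lyso-phosphatidylethanolamine. QCR8 had the largest strain difference in plain YPD and the largest medium dependence, values that share the LGD and WTD libraries. QCR6 was called in every medium compared with plain YPD in the WT strain. Its stretch holds both motifs searched, and that of CYT1 holds neither. Each stretch runs 5′ to 3′ on the gene's strand over bases 350 to 51 before the start codon. The sequences are from the RefSeq genome of build R64, with matches in capitals. The windows are chrXV:447089-447388 (plus strand) for CYT1, chrV:106910-107209 (plus strand) for RIP1, chrVI:224820-225119 (minus strand, reaching into a neighbouring gene) for QCR6 and chrX:106084-106383 (plus strand) for QCR8.
CYT1: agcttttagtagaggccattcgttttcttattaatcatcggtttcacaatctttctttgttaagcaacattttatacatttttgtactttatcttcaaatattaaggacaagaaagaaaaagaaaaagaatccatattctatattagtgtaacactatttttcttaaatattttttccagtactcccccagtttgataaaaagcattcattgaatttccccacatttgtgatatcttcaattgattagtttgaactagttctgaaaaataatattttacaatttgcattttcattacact
RIP1: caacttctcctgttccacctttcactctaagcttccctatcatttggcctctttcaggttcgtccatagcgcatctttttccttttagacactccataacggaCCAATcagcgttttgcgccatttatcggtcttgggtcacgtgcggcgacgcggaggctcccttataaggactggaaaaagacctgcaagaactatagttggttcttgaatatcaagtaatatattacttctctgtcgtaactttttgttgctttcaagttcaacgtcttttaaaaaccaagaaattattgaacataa
QCR6: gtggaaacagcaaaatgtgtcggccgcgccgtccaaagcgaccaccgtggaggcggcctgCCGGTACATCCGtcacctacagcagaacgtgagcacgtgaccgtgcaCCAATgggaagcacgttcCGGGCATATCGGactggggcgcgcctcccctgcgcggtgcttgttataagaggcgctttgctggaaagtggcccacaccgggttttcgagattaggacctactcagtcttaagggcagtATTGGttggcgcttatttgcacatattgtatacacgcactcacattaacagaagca
QCR8: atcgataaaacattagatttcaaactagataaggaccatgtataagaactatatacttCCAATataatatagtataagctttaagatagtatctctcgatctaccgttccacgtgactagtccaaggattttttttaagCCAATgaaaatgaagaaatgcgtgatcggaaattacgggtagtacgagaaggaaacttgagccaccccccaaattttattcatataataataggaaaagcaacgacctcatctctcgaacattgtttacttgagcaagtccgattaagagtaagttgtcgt

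CCAAT, sought on both strands, occurred in the windows of 8 of the 9 members, CYT1 being the exception, and in 42.9% of the windows of the same length at 6007 genes. It began 247 bases before the start codon of RIP1, and 292 and 211 bases before that of QCR8. In QCR6 it lay on the gene's strand from base 243 and on the other strand in the block that begins at base 106. A form of the Hap1 site, made of CGG, any 3 bases, TA, any base and CGG, was sought on both strands as well and was found for QCR6 alone among the members, with one match in each orientation at bases 290 and 225, and in 0.166% of all windows. The 2 motifs did not overlap in QCR6. These are letter matches and not measured binding sites.

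Per kilobase of deposited gene length, QCR9 had the highest value of the members in both strains in plain YPD. QCR9 stood at 767 ± 101 CPM per kb in LGD and 1468 ± 151 CPM per kb in WTD (SD, n = 3 each). That length was 201 bases for QCR9 and 1374 bases for COR1, and an effect of length on this scale was not tested. Without division by length the order differed, with 295 ± 30.4 CPM for QCR9 and 761 ± 10.6 CPM for COR1 in WTD. QCR6, the acidic small subunit, had the lowest value on the per-kilobase scale, at 195 ± 31.5 CPM per kb in LGD and 402 ± 24.2 CPM per kb in WTD. In LGD the order below QCR9 was QCR10, RIP1, CYT1, QCR8 and QCR7, whose neighbours overlapped between libraries, and COR1 and QCR2, which lay below QCR7 and overlapped each other, came before QCR6. In WTD the order below QCR9 was QCR10, QCR8, RIP1, QCR7 and CYT1, with overlapping neighbours, followed by COR1, QCR2 and QCR6, each of which lay wholly below the one before it.

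In plain YPD, transcripts of all 9 bc1 subunits were lower in the LG strain, to between 0.432 of the WT level for QCR8 and 0.594 for QCR2. All 9 members fell with an adjusted p between 0.00234 and 0.00855 (edgeR quasi-likelihood test, Benjamini-Hochberg over 6169 genes), against 17.3% of all genes tested called lower. The median log2 fold change of the members was -0.99, beside 0.01 over all genes tested. The LG libraries lay wholly below the WT libraries for 9 of 9 members, as they did for 24.5% of genes, as the plot of CPM by library shows. The call held for all 9 members without any 1 of the 6 libraries; with replicates 1 and 2 summed the adjusted p was 0.0729 to 0.152, with log2 fold changes of -1.07 to -0.68.

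**Figure D1:**
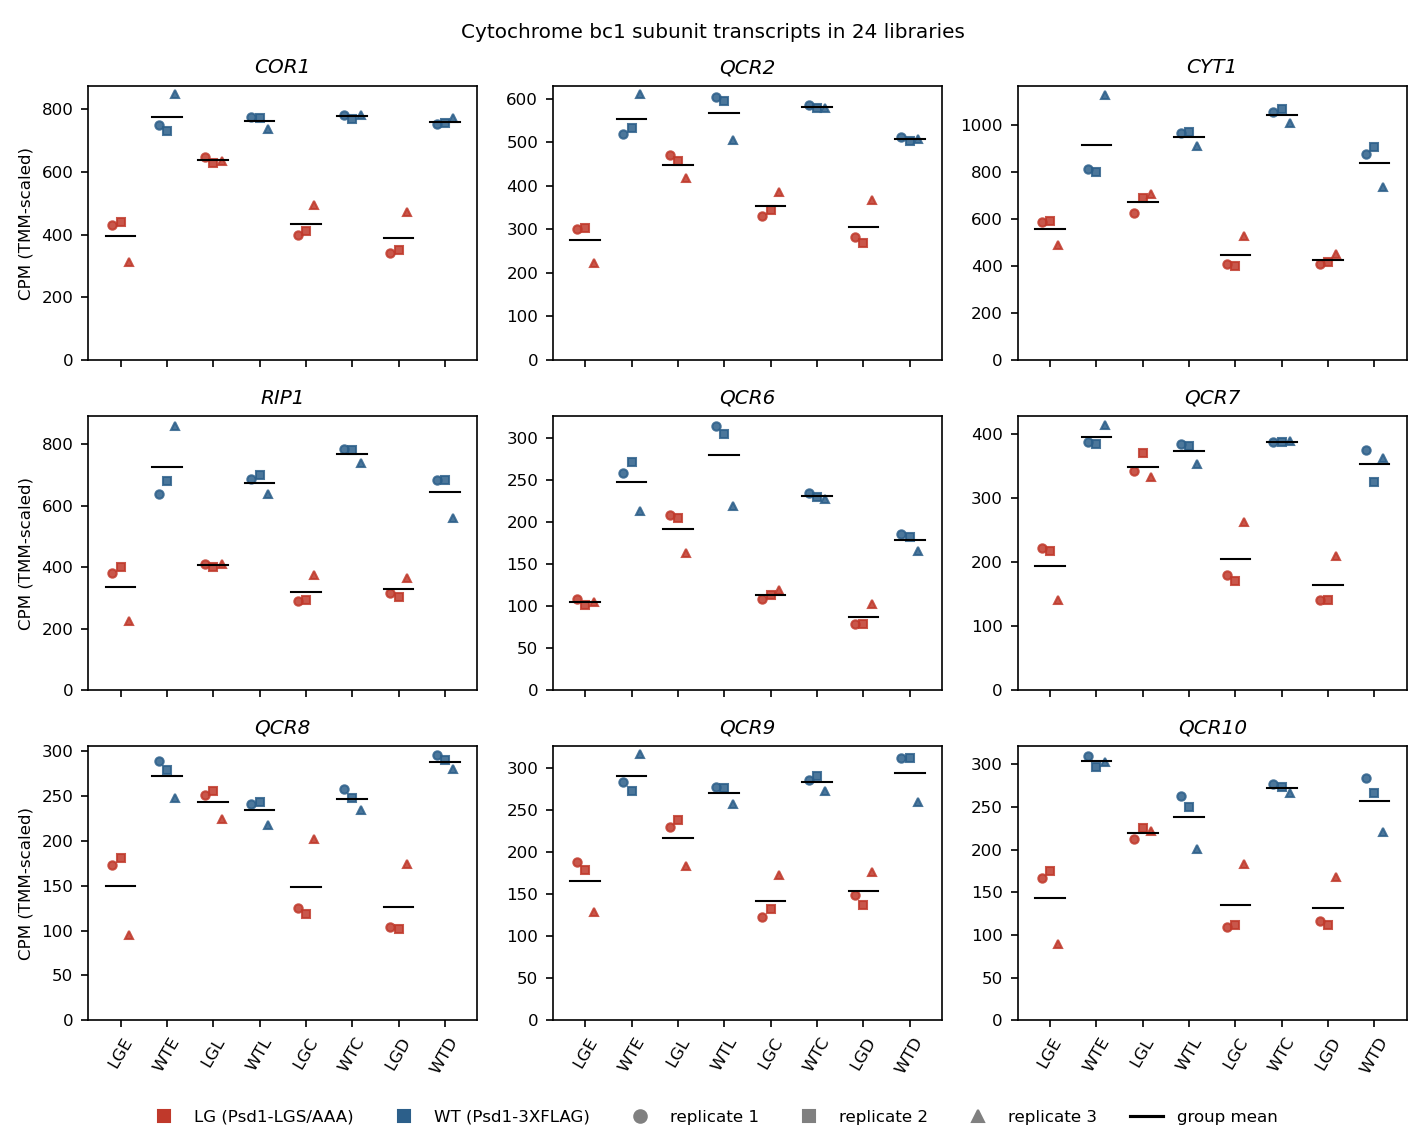
Each panel plots 1 bc1 subunit gene, with TMM-scaled CPM on the vertical axis (from 0) and the 8 groups along the horizontal axis, the LG group left of the WT group of the same medium; points are libraries, shaped by replicate number, and bars are group means. In E, C and D media every LG library lies below every WT library, while in L medium QCR7, QCR8 and QCR10 overlap between strains.

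Among the subunits that carry redox centres, CYT1, which encodes cytochrome c1, had 410, 417 and 452 CPM in the LGD libraries, against 874, 906 and 737 CPM in the WTD libraries. The strains did not overlap, and the LG level was 0.5 of the WT level (log2 SE 0.13; adjusted p = 0.00261, edgeR). RIP1, which encodes the Rieske iron-sulphur protein, had 315, 304 and 365 CPM in LGD, against 685, 683 and 561 CPM in WTD. Its highest LG library was below the lowest WT library, with a log2 fold change of -0.99 ± 0.14 (SE; adjusted p = 0.00305, edgeR). COB, the mitochondrial gene for cytochrome b, had 0 to 10 counts in the 21 libraries whose tables list it and could not be tested. Of 7 subunit genes of the mitochondrial genome, 0 passed the filter on low counts in this comparison.

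The core subunits, which face the matrix and are related to the mitochondrial processing peptidase, also differed. COR1 had 342, 352 and 473 CPM in LGD, against 753, 757 and 773 CPM in WTD. Its log2 fold change was -0.99 ± 0.15 (SE; adjusted p = 0.00438, edgeR). The LG libraries spread more widely than the WT libraries, replicate 3 being the highest. QCR2 had 282, 269 and 368 CPM in LGD, against 512, 503 and 508 CPM in WTD. Its log2 fold change of -0.75 ± 0.14 (SE; adjusted p = 0.00855, edgeR) was the smallest of the 9.

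Of the small subunits, QCR6 had 78.7, 78.6 and 103 CPM in LGD, against 187, 182 and 166 CPM in WTD. QCR7, a subunit needed for assembly of the complex, had 141, 141 and 210 CPM in LGD, against 375, 324 and 362 CPM in WTD. QCR8, which encodes the ubiquinone-binding small subunit, had 104, 101 and 174 CPM in LGD, against 296, 290 and 280 CPM in WTD. In each of these the LG libraries were below all WT libraries, and LGD replicate 3 was the highest of its group. The log2 fold changes were -1.06 ± 0.13 for QCR6, -1.13 ± 0.18 for QCR7 and -1.21 ± 0.22 for QCR8 (SE). QCR9, a small subunit whose gene has an intron, had 149, 137 and 177 CPM in LGD, against 312, 313 and 260 CPM in WTD. QCR10, the other member with an intron and a non-essential subunit at the edge of the complex, had 116, 112 and 167 CPM in LGD, against 283, 266 and 221 CPM in WTD. Neither overlapped between strains.

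Each library's mean log2 level over the 9 members, relative to the WTD mean, was -1.13, -1.16 and -0.72 in the LGD libraries, against 0.06, 0.03 and -0.09 in the WTD libraries. LGD replicate 3 was thus less far from WTD than the other LGD libraries for the complex as a whole. The members' share of all counts was 0.209% ± 0.0282 in LGD and 0.368% ± 0.0174 in WTD (SD, n = 3 each). On raw library totals in place of TMM scaling the mean log2 level relative to WTD was -0.85 in LGD and -0.051 in LGL, against -0.25 in LGL with TMM.

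**Figure D2:**
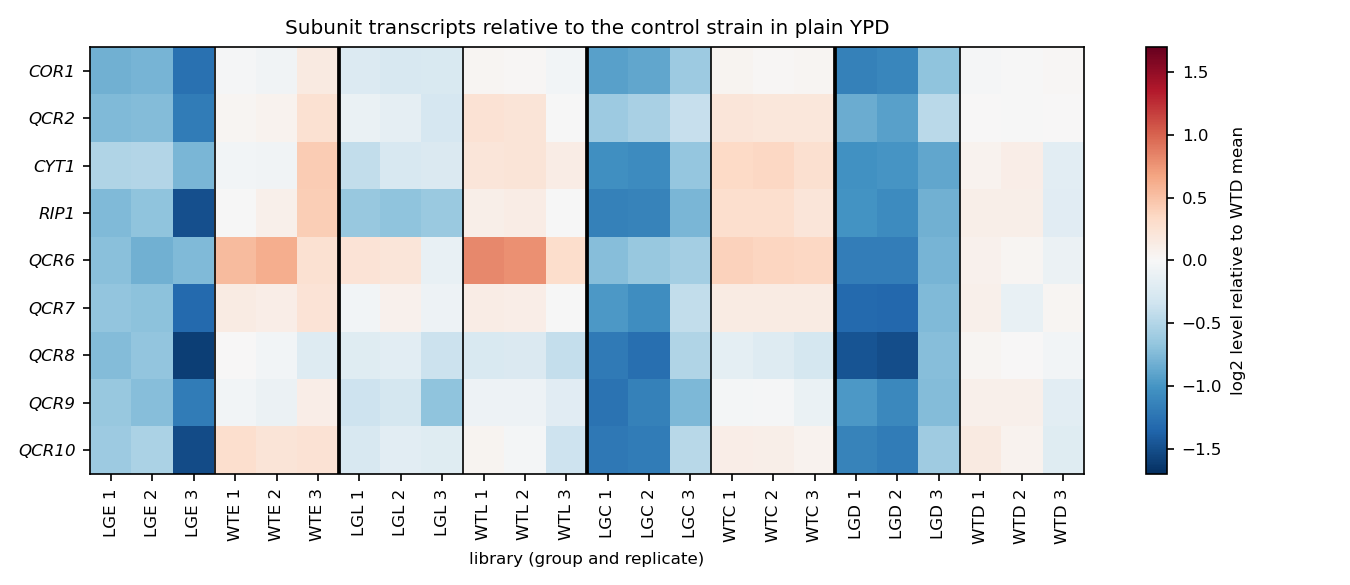
Heat map of the 9 subunit genes (rows) in the 24 libraries (columns, by group and replicate), coloured by log2 CPM relative to the WTD mean of the same gene, blue lower and red higher. The LGE, LGC and LGD columns are blue throughout, the LGL columns are paler, and replicate 3 differs in depth of colour from replicates 1 and 2 in LGE, LGC and LGD.

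With ethanolamine, the difference between strains was about as large as in plain YPD but more variable. The members' median log2 fold change, LGE over WTE, was -1.02, and their values ran from -1.25 for QCR6 to -0.73 for CYT1. QCR6 was the single member called (adjusted p = 0.0177, edgeR), against 0.209% of genes called lower; the other 8 had an adjusted p of 0.0615 to 0.15. QCR6 had 108, 101 and 106 CPM in LGE, against 258, 272 and 214 CPM in WTE. The 9 members had no overlap between the strains' libraries, all LGE values being lower, as for 12.6% of genes. LGE replicate 3 stood apart, with a mean log2 level of -1.24 relative to WTD, against -0.69 and -0.68 in the other LGE libraries. RIP1 had 381, 399 and 226 CPM in LGE, against 639, 681 and 860 CPM in WTE, and QCR8 had 173, 180 and 94.8 CPM in LGE, against 289, 279 and 247 CPM in WTE. Without LGE replicate 3, 8 members were called; without any other library, 0 or 1. DESeq2's Wald test and the edgeR fit of all 24 libraries each called 9.

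With choline, 8 of 9 members were lower in the LG strain (edgeR, adjusted p = 0.00242 to 0.022), against 6.93% of genes called lower. The median log2 fold change, LGC over WTC, was -1.02, and it ranged from -1.29 for RIP1 to -0.74 for QCR2. RIP1 had 289, 293 and 374 CPM in LGC, against 784, 781 and 739 CPM in WTC. CYT1 had 406, 398 and 528 CPM in LGC, against 1053, 1067 and 1007 CPM in WTC (log2 fold change -1.26 ± 0.16, SE). QCR8 was the member not called, with 125, 118 and 202 CPM in LGC and 258, 248 and 235 CPM in WTC (log2 fold change -0.76, adjusted p = 0.055, edgeR). No member overlapped between strains, as for 16.7% of genes. Without WTC replicate 1 or 2 the count was 3, without LGC replicate 1 or 2 it was 4, and without LGC replicate 3 it was 9.

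With tergitol and lyso-phosphatidylethanolamine, LG levels lay closer to WT levels for all 9 members than in plain YPD. The median log2 fold change, LGL over WTL, was -0.30, and 1 of 9 members was called (edgeR), against 0.34% of genes called lower. That member was RIP1, with 409, 399 and 412 CPM in LGL, against 687, 699 and 638 CPM in WTL, the log2 fold change being -0.71 ± 0.12 (SE; adjusted p = 0.0452). Same-numbered LGL and WTL libraries deviated together from their group means, with correlations of 0.28, 0.22 and 0.43. Replicates 1 and 2 being the closest pair, these values rest largely on replicate 3. The labels do not say that replicate numbers mark pairs. In an edgeR fit that takes the replicate number as a block, 4 members were lower, RIP1 (adjusted p = 0.00527), QCR6 (0.0121), CYT1 (0.0194) and QCR2 (0.0388). In that fit 8.01% of genes were called lower. QCR8 had 251, 256 and 224 CPM in LGL, against 241, 243 and 217 CPM in WTL, and QCR7 had 343, 370 and 333 CPM in LGL, against 385, 381 and 353 CPM in WTL. These and QCR10 overlapped between strains, while the other 6 were lower in all LGL libraries, as for 13.6% of genes. The 95% intervals of the log2 fold change were -0.20 to 0.35 for QCR8, -0.36 to 0.20 for QCR7 and -0.41 to 0.22 for QCR10. The count of members called was 0 without replicate 1 or 2 of LGL or WTL, and 2 without replicate 3 of LGL or of WTL.

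**Figure D3:**
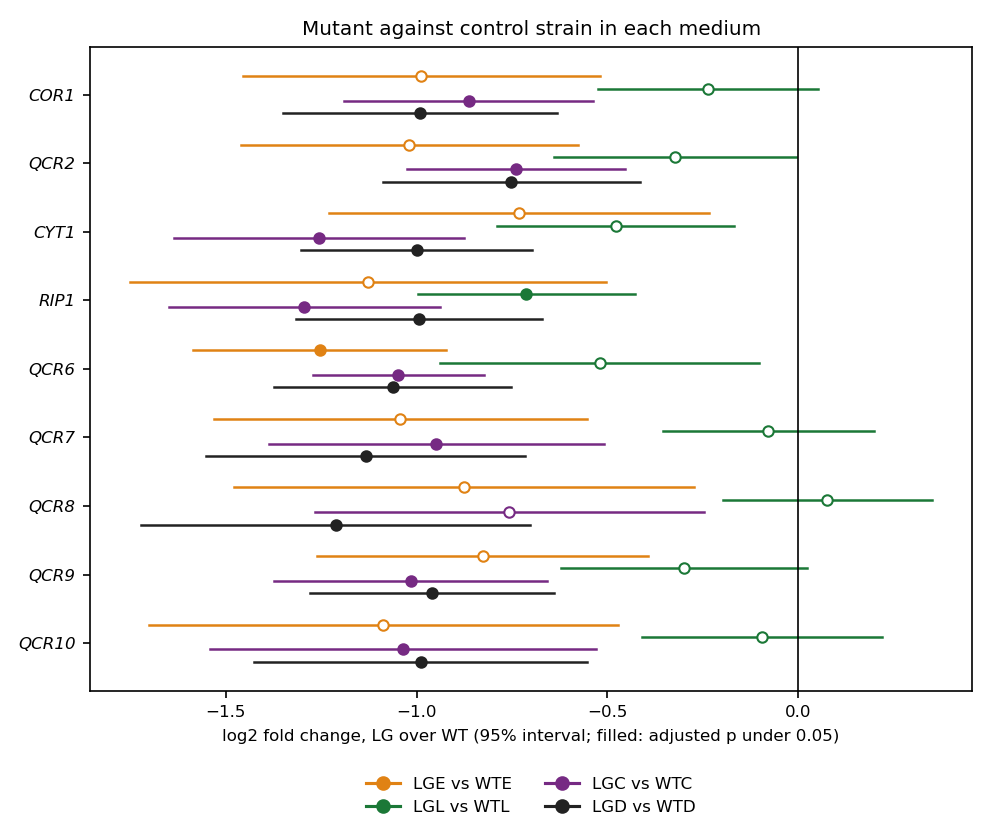
Log2 fold change of each subunit gene (rows), LG over WT, in ethanolamine (E), lyso-phosphatidylethanolamine with tergitol (L), choline (C) and plain YPD (D); bars are 95% intervals, and filled points passed an adjusted p of 0.05 in edgeR. Points for L lie between -0.71 and 0.08, to the right of the other media for every gene.

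The medium comparisons within the LG strain used the same LGD libraries as the strain comparison above. In LGL, 6 of 9 members rose relative to LGD (edgeR), against 5.82% of genes called higher. QCR6 rose 2.22-fold (adjusted p = 0.0171), QCR7 2.12-fold (0.022), QCR8 1.92-fold (0.0404), QCR10 1.67-fold (0.0413), COR1 1.64-fold (0.0411) and CYT1 1.58-fold (0.033). QCR6 had 209, 205 and 164 CPM in LGL, beside the LGD values given above. COR1 had 650, 630 and 636 CPM in LGL, the narrowest spread of any LG group for this gene. The other 3 did not pass, with log2 fold changes of 0.55 for QCR2 (adjusted p = 0.0718), 0.49 for QCR9 (0.0828) and 0.31 for RIP1 (0.168). For 9 of 9 members every LGL library was above every LGD library, as for 18.4% of genes. Without LGD replicate 3 all 9 members were called, and without replicate 1 or 2 of either group 0 were called.

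Neither ethanolamine nor choline gave a member called in the LG strain. In LGE against LGD, edgeR called 0 of 9 members, against 0.225% of genes; 1 member had an unadjusted p under 0.05, and DESeq2 called 0. The median log2 fold change was 0.14, and the 95% intervals of the members together spanned -0.58 to 1.00. CYT1 was the member under 0.05 before adjustment, with 585, 592 and 488 CPM in LGE and 410, 417 and 452 CPM in LGD (log2 fold change 0.40, adjusted p = 0.406, edgeR). In LGC against LGD, edgeR called 0 of 9 members, against 0.0% of 6198 genes, 899 of which had an unadjusted p under 0.05; DESeq2 called 326 genes and 0 members. One member, QCR6, had an unadjusted p under 0.05, with 108, 114 and 119 CPM in LGC and a log2 fold change of 0.39. Same-numbered LGC and LGD libraries also deviated together, again without a pairing in the labels. The edgeR block fit called 3 of 9 members in either direction, near the background of 24.6% of genes in that fit, and all 3 were higher. They were QCR7 by 0.32 (adjusted p = 0.0136, edgeR), QCR6 by 0.40 (0.0234) and QCR8 by 0.24 (0.0298) on the log2 scale.

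In the WT strain, QCR6 was the member that passed in all 3 media. It had 258, 272 and 214 CPM in WTE, 315, 305 and 220 CPM in WTL and 235, 230 and 228 CPM in WTC. In WTD it had 187, 182 and 166 CPM. The log2 fold change relative to WTD was 0.49 ± 0.12 with ethanolamine (SE; adjusted p = 0.0192, edgeR), 0.65 ± 0.14 with lyso-phosphatidylethanolamine (adjusted p = 0.0316) and 0.40 ± 0.08 with choline (adjusted p = 0.0132). The genes called higher were 11.6%, 6.82% and 10.1% of all genes in the same order, so 1 of 9 members is near the background. The members' median log2 fold changes were 0.14 in WTE, 0.07 in WTL and 0.16 in WTC. The mean log2 level of the complex relative to WTD depended on scaling, with values of 0.13 for WTE, 0.07 for WTL and 0.13 for WTC under TMM, and of 0.34, 0.24 and 0.23 in the same order on raw library totals. Of the other members QCR8 had the lowest value in WTL, 241, 243 and 217 CPM (log2 fold change -0.30, adjusted p = 0.0665, edgeR). The QCR6 call was lost without any 1 library except WTE replicate 3 in WTE, WTL replicate 3 in WTL, and WTD or WTC replicate 3 in WTC, and in WTC against WTD it was also lost in the fit of all 24 libraries (adjusted p = 0.181, edgeR). The count of members called ran from 0 to 3 in WTL and 0 to 2 in WTC when 1 library was left out.

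The medium dependence of the strain difference was tested directly, as the difference between the change in LG and the change in WT. These tests reuse the LGD and WTD libraries of the strain comparison in plain YPD. For lyso-phosphatidylethanolamine with tergitol, 5 of 9 members had a more positive change in LG (edgeR), against 12.2% of genes called in that direction. They were QCR8 (1.25 ± 0.26 on the log2 scale, SE; adjusted p = 0.00629), QCR7 (1.02 ± 0.22; 0.00734), COR1 (0.72 ± 0.19; 0.0194), QCR10 (0.86 ± 0.24; 0.0226) and QCR9 (0.63 ± 0.20; 0.0368). All 9 estimates were above 0, with a median of 0.63 beside -0.01 over all genes tested. The remaining members were CYT1 (0.49; adjusted p = 0.0667), QCR6 (0.51; 0.136), QCR2 (0.39; 0.171) and RIP1 (0.25; 0.341). QCR8 and QCR7 were called without any 1 of the 12 libraries; the count over members was 2 without LGD replicate 1 or 2, 3 without WTD replicate 1 or LGL replicate 2, and 8 without LGD replicate 3.

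For ethanolamine and choline, edgeR called 0 of 9 members, against 5.3% and 0.863% of genes in either direction, with 0 members at an unadjusted p under 0.05 and 0 by DESeq2 in both. The medians of the members were -0.00 and 0.01. For QCR8 the interval of this difference was -0.44 to 1.09 with ethanolamine and -0.26 to 1.18 with choline. Both intervals include 0, and both end below the estimate of 1.25 with lyso-phosphatidylethanolamine, which has an interval of 0.70 to 1.81; the estimates of different media were not tested against each other.

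**Figure D4:**
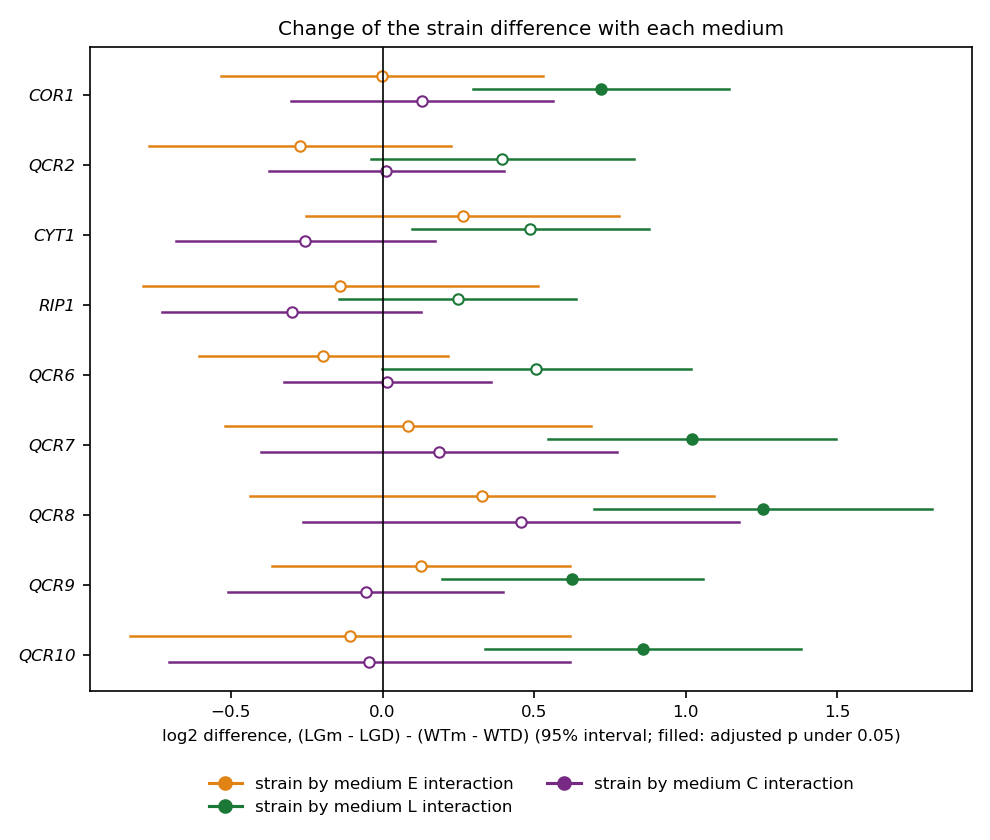
For each subunit gene (rows), the log2 change with a medium in LG minus that in WT, for ethanolamine (E), lyso-phosphatidylethanolamine with tergitol (L) and choline (C), with 95% intervals; filled points passed an adjusted p of 0.05 in edgeR. The filled points are the 5 members in L, from 0.63 for QCR9 to 1.25 for QCR8.

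The ratio between members varied with strain and medium. Per kilobase, QCR8 stood to RIP1, a pair chosen after their values were seen, at 1.39, 1.46 and 1.24 in LGL, against 0.75, 0.76 and 1.09 in LGD. In WT the same ratio was 0.80, 0.79 and 0.77 in WTL and 0.75, 0.72 and 0.72 in WTC, against 0.98, 0.96 and 1.13 in WTD. The ratio was above all LGD values in each LGL library, and below all WTD values in each WTL library and each WTC library. It was 1.03, 1.03 and 0.95 in LGE and 0.99, 0.92 and 1.23 in LGC, which overlapped LGD. In WTE it was 1.03, 0.93 and 0.65, which overlapped WTD. QCR8 and RIP1 had the largest and smallest estimates in the lyso-phosphatidylethanolamine interaction. A strain difference in how their ratio shifted with that medium therefore followed from the choice. QCR7 to RIP1 stood at 1.41, 1.56 and 1.37 in LGL, against 0.76, 0.78 and 0.97 in LGD, and at 0.94, 0.92 and 0.93 in WTL, against 0.92, 0.80 and 1.09 in WTD. That ratio was thus above all LGD values in LGL too, while in WTL it lay within the WTD range. The ratios were not tested, and no share of other gene pairs was taken beside them.

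Across the 8 group means, COR1 was closest to the mean pattern of the complex (Pearson r = 0.994) and QCR8 the farthest (r = 0.959); members are part of that mean. Of 5798 genes with a mean of 50 counts or more, the 5 others most like it were COX12 (r = 0.989), a cytochrome c oxidase subunit; MEF2, a mitochondrial translation factor (r = 0.989); RPN13, a proteasome subunit (r = 0.988); INH1, an inhibitor of the ATP synthase (r = 0.981); and COX7, another oxidase subunit (r = 0.98). COX12 averaged 79.7 ± 12.9 CPM in LGD and 149 ± 8.25 CPM in WTD, and 131 ± 26 CPM in LGL and 182 ± 22.6 CPM in WTL (SD, n = 3 each). RPN13 shared the pattern at a smaller scale, with 102 ± 8.76 CPM in LGD and 130 ± 3.26 CPM in WTD. These correlations are over 8 groups in the same libraries and are a description.

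The subunits of the complexes downstream moved with the members in plain YPD. Of 10 nuclear cytochrome c oxidase subunit genes, 10 were lower in LGD than in WTD (edgeR), against 17.3% of all genes called lower. Their median log2 fold change was -0.94, beside 0.01 over all genes. COX6 (-1.06, edgeR adjusted p = 0.00132) and COX9 (-0.88, 0.00158) were among them. Of 14 ATP synthase subunit genes, 13 were lower (edgeR, median -0.76), against the same 17.3% of genes. Among them were ATP20 (-1.10, edgeR adjusted p = 0.00101) and ATP16, the delta subunit (-1.19, 0.00171). Upstream, 7 of 8 dehydrogenases that feed ubiquinone were lower (edgeR, median -1.12), again against 17.3% of genes. Among them were SDH2 (-1.14, edgeR adjusted p = 0.00188) and SDH1 (-1.66, 0.00242) of succinate dehydrogenase. In the lyso-phosphatidylethanolamine interaction, 7 of 8 dehydrogenases had a more positive change in LG than in WT (edgeR), against 12.2% of all genes. The remaining one had a more negative change, against 13.0% of genes. The dehydrogenases' median log2 fold change was 0.79 in LGL against LGD and -0.45 in WTL against WTD, beside 0.01 and 0.02 over all genes. A fall in WT thus entered the difference as well as a rise in LG. The 2 of 10 oxidase genes and 2 of 14 ATP synthase genes called with a more positive change in LG are near the background of 12.2%.

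Genes that build the complex were higher in the LG strain in plain YPD or did not pass. Of 12 biogenesis factors, 5 were higher in LGD than in WTD and 0 lower (edgeR; median log2 fold change 0.30 beside 0.01 over all genes), against 19.5% of genes called higher, among them CYT2, the heme lyase for cytochrome c1 (0.53, adjusted p = 0.00604), and FMP25 (0.48, 0.0121), required for assembly of the complex. CYT2 averaged 241 ± 7.73 CPM in LGD and 165 ± 9.09 CPM in WTD (SD, n = 3 each). The counts for ubiquinone and heme synthesis are near or below the background of 17.3% of genes called lower and 19.5% called higher. Of 11 ubiquinone synthesis genes, 1 was lower, COQ11 (-0.76, 0.00262), and 1 higher, COQ8 (0.45, 0.0245). Of 8 heme synthesis genes, 2 were lower (edgeR), HEM13 (-1.55, 0.00402) and HEM14 (-0.68, 0.00628). HEM13 averaged 311 ± 35.2 CPM in LGD and 899 ± 287 CPM in WTD, where its libraries spread widely. WTD was the high group for HEM13, with 199 ± 41.3 CPM in WTE, 230 ± 34 CPM in WTL and 224 ± 14.9 CPM in WTC. In the LG strain HEM13 had 242 ± 17.7 CPM in LGE, 340 ± 45.2 CPM in LGL and 236 ± 34.4 CPM in LGC (SD, n = 3 each).

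Among the regulators, 2 of 5 HAP genes were lower in LGD than in WTD (edgeR), against 17.3% of genes, HAP1 (log2 fold change -0.70, adjusted p = 0.0145) and HAP5 (-0.38, 0.0149). HAP4, the activator subunit that limits the CCAAT-binding complex, averaged 417 ± 108 CPM in the LGD libraries, against 382 ± 25.9 CPM in the WTD libraries (SD, n = 3 each), and did not pass (log2 fold change 0.11, adjusted p = 0.708). HAP4 was not steady in all media. In WTE it averaged 162 ± 56.3 CPM and was called lower than in WTD (log2 fold change -1.22, adjusted p = 0.00662, edgeR). Its difference of 1.24 in LGE against WTE did not pass (adjusted p = 0.142, edgeR), nor did its other comparisons. Of 7 genes for cytochrome c and its partners, 3 were lower and 1 higher, against the same background of 17.3% and 19.5% of genes, so that the single higher gene is below it. In this list the smallest p belonging to CYB2, the lactate dehydrogenase that reduces cytochrome c (-1.47, 0.00362), and CCP1, cytochrome c peroxidase (-0.44, 0.0135). CYC1, the main cytochrome c and electron acceptor of the complex, averaged 366 ± 17.1 CPM in the LGD libraries, against 338 ± 30.2 CPM in the WTD libraries (log2 fold change 0.09, adjusted p = 0.546). CYC7, the second isoform of cytochrome c, fell to 21.4 ± 19.9 CPM in the LGD libraries, against 97 ± 21.6 CPM in the WTD libraries (log2 fold change -2.21, adjusted p = 0.0282). With replicates 1 and 2 summed, ATP20 was the 1 gene of all these lists called in LGD against WTD (adjusted p = 0.0483, edgeR).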

How the data were processed

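Per the labels' protocols, hot phenol was used to extract RNA of the 24 yeast samples, which went into Illumina libraries. The submitters' processing notes name CASAVA, STAR 2.5, HTSeq 0.6.1 and DESeq2; genome build, annotation and strandedness are not given in the sources used here. The 7 deposited tables give whole-number read counts per gene, which were used. The deposited tables also hold a signal (counts over a size factor per library), FPKM, and log2 fold changes with p-values from the authors, per the file headers; these entered no test. No member overlaps another gene, 0 stretches of 50 bases of a member's coding sequence occur elsewhere in R64, and 9 of 9 members have the same start and end there. Counts of a library that recurs in several tables were the same in each (0 differences), and 0 columns could not be mapped to a sample. Symbols came from the R64 gene table.

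Each pairwise comparison was fitted on its 6 libraries and each interaction on 12, with edgeR 4.0.16 (quasi-likelihood F test, TMM, filterByExpr, Benjamini-Hochberg over all genes tested, threshold 0.05) in R 4.3.3. Standard errors were derived from the F statistic. Levels are CPM in 1 TMM scaling of all 24 libraries, and log2 levels have a prior count of 2. Composition affects such relative values, and DESeq2 1.42.0 was an alternative, beside no filter, a replicate block, replicates 1 and 2 summed, all 24 libraries in 1 fit, each library left out and raw totals. Same-numbered libraries deviated together (3 correlations over 0.1) in 4 of 10 comparisons: LGL against WTL, LGC against WTC, LGC against LGD and WTE against WTD. The labels do not say that replicate numbers mark pairs. The fits were tested on simulated data. Genes that are no members were named as the 2 with the smallest p of each list in LGD against WTD, the 5 most similar across groups, and PSD1, COB, HAP4, CYC1 and CYC7. The members and lists were chosen with earlier results of these data known.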

Additional observations from a re-analysis of the deposited data

Results flagged for a closer look

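The change with tergitol and lyso-phosphatidylethanolamine differed between the strains by the interaction test of edgeR for 5 members and 1 other gene named here. On the log2 scale, LG minus WT, it was 1.25 for QCR8, 1.02 for QCR7, 0.86 for QCR10, 0.72 for COR1 and 0.63 for QCR9. CYC7, the second cytochrome c isoform, had a difference of 3.51 (adjusted p = 0.00742), with 179 ± 79.8 CPM in LGL and 21.4 ± 19.9 CPM in LGD, against 71.9 ± 6.41 CPM in WTL and 97 ± 21.6 CPM in WTD (SD, n = 3 each). CYC1 differed with choline by -1.12 (adjusted p = 0.0417, edgeR). It had 338 ± 55.6 CPM in LGC and 366 ± 17.1 CPM in LGD, against 679 ± 112 CPM in WTC and 338 ± 30.2 CPM in WTD. WTD was the low WT group for CYC1, with 582 ± 41.7 CPM in WTE and 631 ± 85.9 CPM in WTL. Its interaction estimates were -0.61 with ethanolamine (adjusted p = 0.0582, edgeR) and -0.22 with lyso-phosphatidylethanolamine and tergitol (0.49), neither of which passed.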

How the results depend on the processing

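Of 1566 member values under an alternative, 1379 kept their direction and side of the threshold, 125 lost a call, 57 gained one, 5 uncalled ones moved by more than 1 standard error, and 0 that were called in either fit changed sign; 74 of the 1083 uncalled in both fits did change sign. With replicates 1 and 2 summed, 0 members were called in every comparison, against 9 (LGD against WTD), 1 (LGE against WTE), 1 (LGL against WTL), 8 (LGC against WTC), 6 (LGL against LGD), 1 each in WTE, WTL and WTC against WTD, and 5 in the L interaction; this leaves 2 libraries per group. With the replicate block, 0 were called in LGE against WTE, LGL against LGD, WTL against WTD and WTC against WTD, 4 in LGL against WTL and 3 in LGC against LGD, and the block moved no other count of members by more than 1.5 times. In WTL and WTC against WTD, where same-numbered libraries deviated in opposite directions, QCR6 lost its call under the block (adjusted p = 0.0799 and 0.0809); the cause was not tested. DESeq2's Wald test called 9 in LGE against WTE, 2 in LGL against WTL, 2 in WTL against WTD and 3 in WTC against WTD; the fit of all 24 libraries called 9 in LGE against WTE, 3 in LGL against WTL and 0 in WTC against WTD; DESeq2 size factors called 0 in LGL against WTL. For the last 3 settings the cause was not tested. Leaving out 1 library gave 9 to 9 members in LGD against WTD, 0 to 8 in LGE against WTE, 0 to 2 in LGL against WTL, 3 to 9 in LGC against WTC, 0 to 9 in LGL against LGD, 0 to 1 in WTE, 0 to 3 in WTL and 0 to 2 in WTC against WTD, 2 to 8 in the L interaction, and 0 to 0 in LGE against LGD, LGC against LGD and the E and C interactions. On raw library totals the mean log2 level relative to WTD was -0.051 in LGL, 0.34 in WTE, 0.24 in WTL and 0.23 in WTC, against -0.25, 0.13, 0.07 and 0.13 with TMM. The ranking of similar genes had the same 5 genes with a prior count of 0.5. Over all genes, LGD against WTD called 1275 with the block and 96 with replicates 1 and 2 summed, against 2270; LGL against WTL called 94 and, with the block, 1242; LGC against LGD called 0 and, with the block, 1524. Counting depth was not a limit for the members.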
